A study of Mus musculus with 75 samples.

Results

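The 80 mpk and 40 mpk doses of MK4101, a drug that the labels class as a sonic hedgehog (SHH) inhibitor, were compared in mouse medulloblastoma allografts collected 24 h after a single dose (QD). The comparison rests on 8 of the 75 arrays of the series, chosen by schedule, dose and time from the sample titles: 4 arrays at 80 mpk and 4 arrays at 40 mpk, with mpk, the unit printed in the labels, standing for mg per kg. The 5 vehicle arrays of the same schedule and time stand beside them. Every tumour, vehicle ones included, derived from Ptch1+/- mice and was grown in nude CD1 hosts, which lack most T cells. Whether replicate arrays represent different animals is not stated, and the p-values therefore cover only the spread among the samples, which may be technical. Fold changes are log2 differences of 80 minus 40 mpk with their standard error (SE) unless another comparison is named, and single values are scaled intensities, where an array's mean over all probe sets is 1. A gene was called where its adjusted p (limma, Benjamini-Hochberg over all 21552 genes) was under 0.05. The number of arrays limits the precision.

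In the hedgehog pathway the receptor Ptch1 holds the membrane protein Smo off until a ligand binds. Active Smo frees the Gli transcription factors, which switch on targets that include Gli1 and Ptch1 themselves. In the developing cerebellum the pathway drives granule neuron progenitors to divide, and medulloblastomas that lose Ptch1 keep it on.

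The genes that differed between doses were few, and nearly all of them were lower at the higher dose. limma called 260 of the 21552 genes (1.21%), of which 258 were lower (1.2% of all genes) and 2 were higher (0.00928%) at 80 than at 40 mpk. In all, 1607 genes had an unadjusted p under 0.05, where 1078 would by chance. The falls ran from -0.209 to -2.30 with a median of -0.54, against a median of -0.007 over all genes, and 11 of the called genes differed by 2-fold or more. In 202 of the 258 genes every 80 mpk array lay below every 40 mpk array, against 3.24% of all genes. The 258 were chosen on these same arrays, so this share is a description and nothing is read from it. The time was picked because the Gli1 difference between doses is largest there, and the p-values of other genes carry no adjustment for that choice among 5 times.

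The granule neuron lineage gene Barhl1 was measured in every group, with geometric means of 6.16 at 80 mpk, 5.03 at 40 mpk and 2.44 in vehicle. Muscle markers differed strongly between arrays of a group. Of 17 skeletal muscle markers all were measured, and their summed intensity ran from 2.42 to 267 in the 80 mpk arrays, from 3.21 to 402 in the 40 mpk arrays and from 2.49 to 49.3 in the vehicle arrays. Muscle-rich arrays, those with a mean log2 of this list above 0, were replicates 3 and 4 of 4 at 80 mpk, replicates 1, 2 and 3 of 4 at 40 mpk and replicate 5 of 5 in vehicle. Of the muscle list 0 of 17 genes were called between doses in limma and 0 had an unadjusted p under 0.05, with a median of -1.83. With the muscle list mean as a covariate 300 genes were called, and 256 of the 258 lower genes were still called. With only the muscle-rich 24 h arrays, 2 against 3, the 258 genes had a median of -0.52 and 71 were still called. Without muscle-rich arrays, 2 against 1, they had a median of -0.49 and 19 were still called, the lone 40 mpk array being taken to vary like the other groups. A fit on the 2 dose groups alone called 0 genes, where 1280 had an unadjusted p under 0.05 and 255 of the 258 were among them. The 258 were chosen on these same arrays. Their medians, low p-values and kept calls in these fits follow in part from that choice and are a description. In bulk tissue fewer cells of a type and less RNA per cell cannot be told apart.

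Gli1, the target that reads out the pathway, is the gene by which the time was chosen, so its values are given as a description with no test. Gli1 stood at 0.218, 0.265, 0.374 and 0.189 in the 80 mpk arrays, against 1.31, 1.1, 1.27 and 0.501 in the 40 mpk arrays, and at 2.3, 2.61, 2.32, 2.02 and 2.29 in the vehicle arrays. The 3 groups did not overlap. The geometric mean at 80 mpk was 3.87-fold lower than at 40 mpk (-1.95 ± 0.22). Without muscle-rich arrays the difference was -1.06, and the 40 mpk array left in that setting, replicate 4, had the lowest Gli1 value of its group.

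Among the other transcription factors of the pathway, Gli2, its main activator, fell with dose. Its values were 0.518, 0.713, 0.986 and 0.656 at 80 mpk, against 1.37, 1.29, 1.42 and 0.872 at 40 mpk. The highest 80 mpk array lay above the lowest 40 mpk array, and the difference was -0.80 ± 0.17 (adjusted p = 0.00286). Without 80 mpk replicate 1 the difference was -0.65 with an adjusted p of 0.0603. A second, dim probe set of Gli2 gave -0.04, with a geometric mean of 0.122 over all arrays. Gli3, which acts mostly as a repressor, differed by 0.13 (95% confidence interval -0.12 to 0.39).

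The receptor and a co-receptor moved the same way. Ptch1 stood at 5.71, 8.84, 9.3 and 6.38 in the 80 mpk arrays, against 12.9, 11.4, 13.5 and 9.03 in the 40 mpk arrays, and at 17.9 to 20.3 in the 5 vehicle arrays. Only 80 mpk replicate 3 lay above the lowest 40 mpk array, and Ptch1 fell by 0.65 on the log2 scale (SE 0.12, adjusted p = 0.000346). Boc, a co-receptor for hedgehog ligands, stood at 1.01, 1.18, 1.23 and 1.01 at 80 mpk, against 1.94, 1.56, 2.27 and 1.19 at 40 mpk. The lowest 40 mpk value lay inside the 80 mpk range, and the difference was -0.62 ± 0.16 (adjusted p = 0.0273). The call for Boc was lost without 40 mpk replicate 1 or 3, or without 80 mpk replicate 1 or 4, with differences of -0.48 to -0.58 and adjusted p of 0.121 to 0.271. The other co-receptors did not pass the test, with differences of 0.07 for Cdon and 0.10 for Gas1, and neither did Smo (-0.11) or Sufu, which holds the Gli proteins in the cytoplasm (-0.11). Hhip, a decoy receptor and a target, differed by -0.23 (interval -0.73 to 0.27), with values of 0.0661 to 0.0726 at 80 mpk against 0.0687 to 0.0947 at 40 mpk. All of these values lie under the array medians of 0.109 to 0.131, so a further fall of Hhip with dose may not show.

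**Figure D1:**
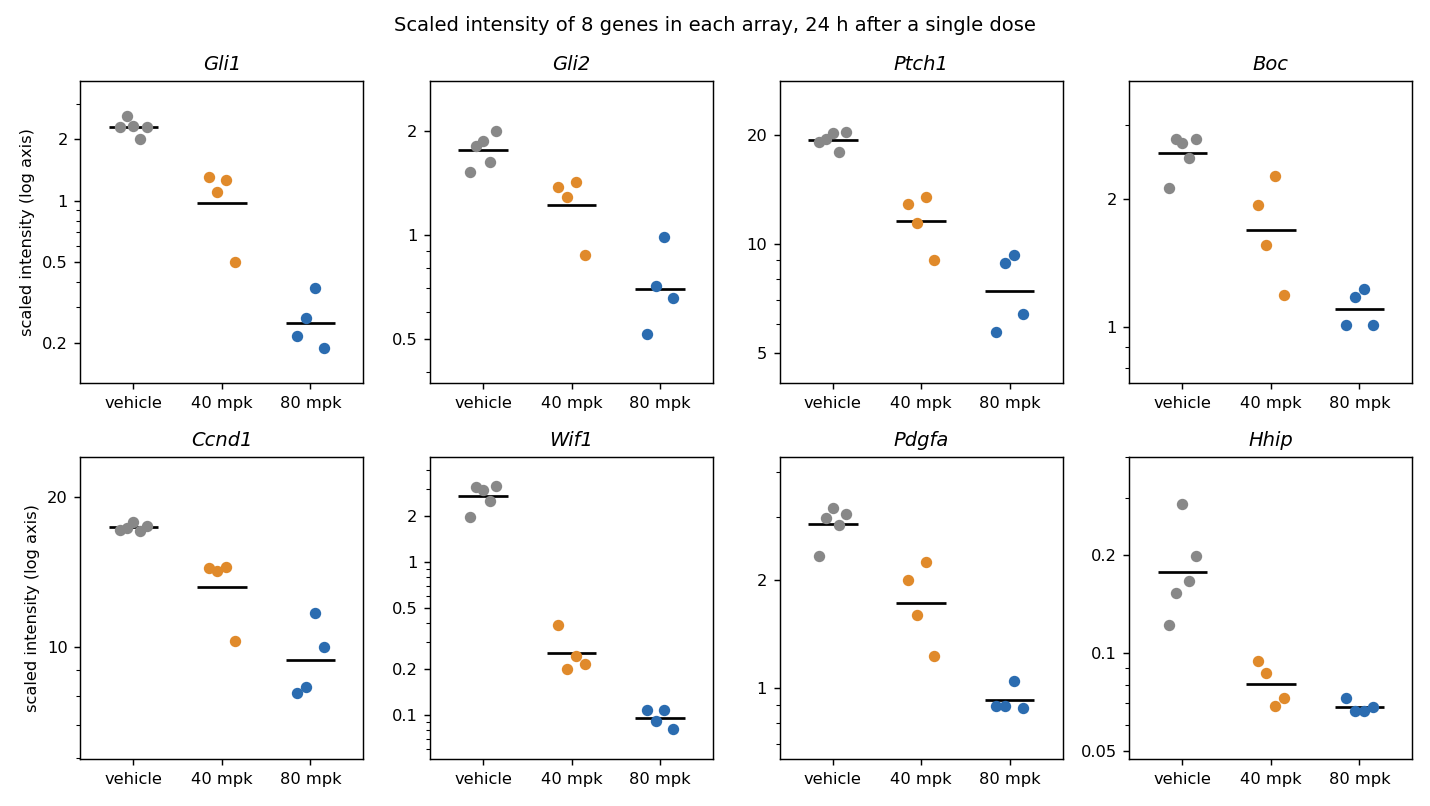
Scaled intensity (log axis) of 8 genes in each array 24 h after vehicle, 40 mpk or 80 mpk. Points are arrays and bars are geometric means. The 80 mpk arrays of Gli1 (0.189 to 0.374) and Wif1 (0.0806 to 0.108) lie below all 40 mpk arrays, while 1 or more arrays overlap for Gli2, Ptch1, Boc, Ccnd1 and Hhip.

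Beside vehicle, with the vehicle arrays shared by both comparisons, the differences at 80 and at 40 mpk were -3.19 and -1.23 for Gli1, -1.33 and -0.53 for Gli2, -1.39 and -0.74 for Ptch1, and -1.22 and -0.60 for Boc. Hhip differed from vehicle by -1.38 at 80 mpk and by -1.15 at 40 mpk. For Gli1, Gli2, Ptch1 and Boc the 40 mpk mean thus lay between the 80 mpk and the vehicle means. Over the list of 18 measured pathway components Gli2, Ptch1 and Boc were called lower beside Gli1, which chose the time, against 1.2% of all genes. The median of the list was -0.10, and without 80 mpk replicate 1 the count of 4, Gli1 included, was 2.

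Pathway targets that act in the cell cycle split by gene. Ccnd1, the cyclin that starts G1 progression, stood at 8.08, 8.31, 11.7 and 10 in the 80 mpk arrays, against 14.4, 14.2, 14.5 and 10.3 in the 40 mpk arrays. The low 40 mpk array was again replicate 4, and the difference was -0.49 ± 0.12 (adjusted p = 0.0231). This call was lost on leaving out 80 mpk replicate 1 or 2 or 40 mpk replicate 1, 2 or 3 (differences of -0.42 to -0.46, adjusted p of 0.0759 to 0.176), and with the mean of all probe sets. Foxm1, a transcription factor of mitotic genes, differed by -0.63 ± 0.16 (adjusted p = 0.0241). Its call was lost without 80 mpk replicate 1, 2 or 4 or 40 mpk replicate 1 or 2, with differences of -0.52 to -0.64 and adjusted p of 0.0504 to 0.197. Ccnd2, another D-type cyclin, differed by -0.01 (interval -0.25 to 0.23). It was higher than vehicle by 0.74 at 80 mpk and by 0.75 at 40 mpk. Mycn, a growth-promoting transcription factor, stood at 6.56, 8.17, 8.07 and 8.03 at 80 mpk, against 8.87, 8.61, 8.85 and 9.23 at 40 mpk. The 2 doses did not overlap in Mycn, but the difference of -0.21 had an adjusted p of 0.659. In vehicle Mycn stood at 6.11 to 7.07, below every dosed array except 80 mpk replicate 1. Of 17 measured targets Ptch1, Ccnd1 and Foxm1 were called lower beside Gli1, against 1.2% of all genes, with a list median of -0.14. The count of 4, Gli1 included, was 2 without 80 mpk replicate 1 or 2 or 40 mpk replicate 1 or 2.

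Wif1, Pdgfa and Syt13 were among the 15 falls that the rule took as the largest without overlap of the doses, so the lack of overlap in them is fixed by the rule. Wif1, a secreted inhibitor of Wnt ligands, stood at 0.107, 0.0912, 0.108 and 0.0806 in the 80 mpk arrays, against 0.385, 0.2, 0.243 and 0.216 in the 40 mpk arrays, and at 1.95 to 3.11 in vehicle. Every dosed array lay below every vehicle array, and Wif1 fell by 1.39 between doses (SE 0.23, adjusted p = 0.000106). The 80 mpk values of Wif1 lie under the array medians of 0.109 to 0.131, so the size of its difference is less certain. Wif1 was the single called member among 12 Wnt antagonists and targets, against 1.2% of all genes called lower. Pdgfa, a ligand of the platelet-derived growth factor receptor, stood at 0.893, 0.893, 1.05 and 0.882 at 80 mpk, against 2.01, 1.6, 2.25 and 1.23 at 40 mpk. The 80 mpk values were close together while the 40 mpk values were spread, and the difference was -0.90 ± 0.14 (adjusted p = 2.59e-05). A second, dimmer probe set of Pdgfa gave only -0.12, with a geometric mean of 0.471 over all arrays. The fall of Pdgfa thus rests on 1 of its 2 probe sets. Syt13, an atypical synaptotagmin of membrane traffic, stood at 0.304, 0.359, 0.437 and 0.284 at 80 mpk, against 0.851, 0.734, 0.8 and 0.504 at 40 mpk (-1.05 ± 0.15, adjusted p = 1.33e-05). The 40 mpk values of Syt13 were lowest in replicate 4.

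Genes of S phase entry and DNA replication were lower at 80 mpk. In the list of G1/S and replication genes 17 of 26 measured members were called lower, against 1.2% of all genes, and all 26 differences were below 0 with a median of -0.54. In 17 members the arrays of both doses did not overlap, against 3.24% of all genes. The mean log2 of the list was 0.02, 0.05, 0.14 and -0.14 in the 80 mpk arrays, against 0.77, 0.41, 0.52 and 0.52 in the 40 mpk arrays, and 1.36 to 1.49 in vehicle. Each 80 mpk array was below each 40 mpk array, whether muscle-rich or not. With only the muscle-rich arrays 8 members were called, and without them 1, while leaving out any single array gave 12 to 19.

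The replicative helicase, the Mcm ring that unwinds DNA, showed the pattern array by array. Mcm2 stood at 2.3, 2.22, 2.66 and 1.92 at 80 mpk, against 4.7, 3.62, 3.84 and 3.37 at 40 mpk, and at 7.38 to 8.1 in vehicle (-0.77 ± 0.13, adjusted p = 0.000102). Mcm5 stood at 1.61, 1.66, 1.74 and 1.2 at 80 mpk, against 2.97, 2.41, 2.63 and 2.28 at 40 mpk (-0.73 ± 0.12, adjusted p = 0.000103). In both genes the 3 groups were apart, with 80 mpk lowest and vehicle highest. Gins1, a subunit of the GINS complex that joins the helicase, stood at 0.813, 0.677, 0.846 and 0.65 at 80 mpk, against 1.47, 1.16, 1.31 and 1.22 at 40 mpk (-0.79 ± 0.13). Cdt1, which loads the Mcm ring, fell by 0.73, and Ccne2, the E-type cyclin of S phase entry, fell by 0.82. The thymidine enzymes Tyms and Tk1 fell by 0.57 and 0.71. Members that did not pass the test include the loading factor Cdc6 (-0.10), Gins2 (-0.22) and the sliding clamp Pcna (-0.28, adjusted p = 0.205, groups without overlap).

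Promoters of this list often carried E2F-type letters, and the promoters of Mcm5 and Cdt1 are printed as examples from genes that fell. Sequences are RefSeq promoters of build GRCm38.p6, from 250 bases before to 50 after the gene's start, and the search on both strands used TTTCCCGC, TTTGGCGC, TTTCGCGC and TTTGCCGC. A match stood in 9 of the 21 list members with a promoter entry (42.9%), against 704 of 27025 promoters in all (2.6%). Among the called lower genes 39 of 210 held a match (18.6%). Mcm5 lies at chr8:75109259-75109558 on the plus strand, where the capitals mark 2 overlapping matches on opposite strands. Cdt1 lies at chr8:122567765-122568064 on the plus strand, where the capitals mark 1 match.
Mcm5: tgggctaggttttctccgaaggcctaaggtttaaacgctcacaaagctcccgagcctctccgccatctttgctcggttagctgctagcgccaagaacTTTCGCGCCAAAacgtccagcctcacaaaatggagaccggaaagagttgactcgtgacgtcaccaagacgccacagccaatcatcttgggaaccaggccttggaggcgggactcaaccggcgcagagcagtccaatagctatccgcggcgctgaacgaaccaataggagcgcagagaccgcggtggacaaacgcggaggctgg
Cdt1: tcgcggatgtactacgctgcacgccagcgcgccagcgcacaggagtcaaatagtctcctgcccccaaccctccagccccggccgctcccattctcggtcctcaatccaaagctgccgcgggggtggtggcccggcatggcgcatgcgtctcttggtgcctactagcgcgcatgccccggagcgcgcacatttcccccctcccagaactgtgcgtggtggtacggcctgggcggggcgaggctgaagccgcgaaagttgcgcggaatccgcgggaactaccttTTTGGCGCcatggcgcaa
A match is a description of the letters and was not tested as a binding site.

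Other genes of S phase were among the largest falls. Dscc1, a subunit of an alternative clamp loader for sister chromatid cohesion, stood at 0.37, 0.34, 0.448 and 0.235 at 80 mpk, against 1.06, 0.596, 0.715 and 0.626 at 40 mpk (-1.10 ± 0.17, adjusted p = 3.53e-05). Ung, which removes uracil from DNA, stood at 0.714, 0.695, 0.805 and 0.62 at 80 mpk, against 1.86, 1.26, 1.76 and 1.16 at 40 mpk (-1.07 ± 0.16, adjusted p = 1.33e-05). The absence of overlap in these genes is fixed by the rule that named them. Smaller falls were those of the clamp-associated factor Pclaf (-0.96), Chaf1b of the chromatin assembly factor (-0.88) and Dtl, which marks Cdt1 for degradation (-0.86). The remaining genes that the rule took were Aunip (-1.05), which binds the kinase Aurka, Tbata (-0.90), Tmem28 (-0.89), the kinase Pask (-0.84) and the histone gene H2ac11 (-0.91), whose probe set may read near-identical histone copies. The call for H2ac11 was lost on leaving out any of 6 arrays, all but 40 mpk replicate 2 and 80 mpk replicate 3 (adjusted p of 0.0509 to 0.199). Tbata had an adjusted p of 0.119 without 40 mpk replicate 1, and Tmem28 0.0536 without 80 mpk replicate 1. For Tmem28 another probe set gave 0.03.

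Further groups of genes were counted after values were seen, some by symbol and others as hand-picked sets, and they carry no test. Over all genes 1.2% were called lower. Called lower were 6 of 9 Mcm genes (median -0.52), 3 of 4 GINS subunits (-0.29), 3 of 5 replication factor C subunits (-0.35) and 5 of 10 replicative polymerase subunits (-0.38). A hand-picked set of 8 genes of chromatin assembly and replication-linked chromatin gave 7 (-0.61), the DNA methylation cofactor Uhrf1 (-0.61) among them. The origin recognition complex gave 2 of 6 (-0.22) and the Fanconi repair genes 2 of 9 (-0.15). Of the E2F factors 2 of 8 were called, E2f7 (-0.78) and E2f8 (-0.63), which act as repressors.

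Genes of mitosis were lower at 80 mpk as well. In the list of G2/M and mitosis genes 16 of 25 measured members were called lower, against 1.2% of all genes, and all 25 differences were below 0, with a median of -0.51. In 11 members the doses did not overlap, against 3.24% of all genes. The mean log2 of the list was 0.34, 0.49, 0.87 and 0.35 at 80 mpk, against 1.17, 1.07, 0.85 and 0.93 at 40 mpk, and 1.90 to 2.11 in vehicle. Replicate 3 at 80 mpk lay just above the lowest 40 mpk array. The count fell to 3 without 40 mpk replicate 1, to 5 without 80 mpk replicate 1, to 7 without 80 mpk replicate 2 or 4 and to 9 without 40 mpk replicate 2. With only the muscle-rich arrays it was 2, and without them 1.

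**Figure D2:**
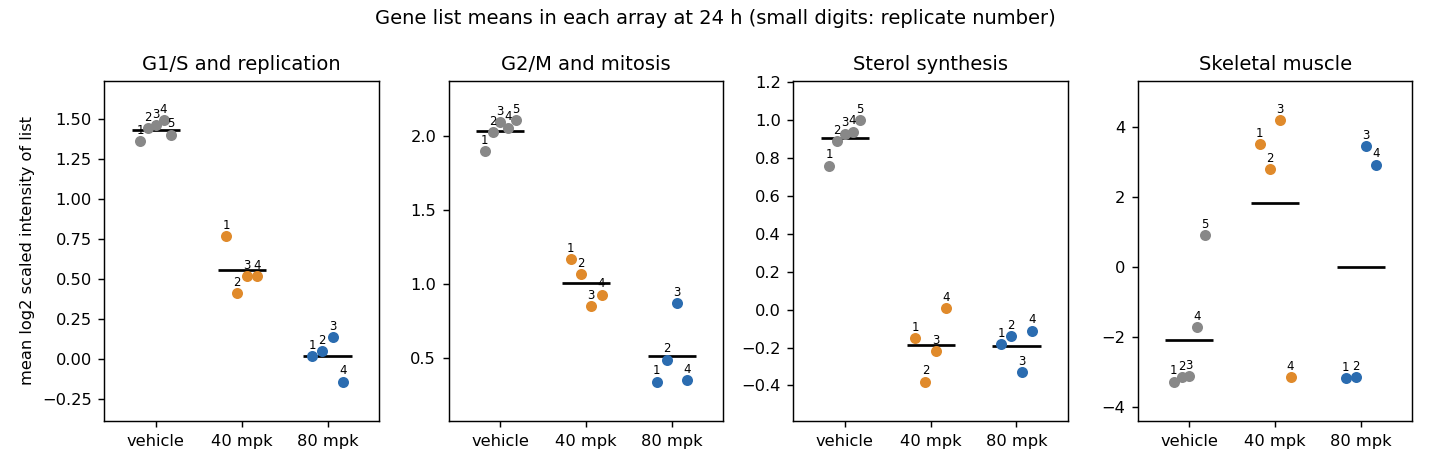
Mean log2 scaled intensity of 4 gene lists in each array at 24 h after vehicle, 40 mpk or 80 mpk. Points are arrays with their replicate number, and bars are group means. The G1/S means are -0.14 to 0.14 at 80 mpk and 0.41 to 0.77 at 40 mpk, the sterol means overlap between doses, and the muscle means spread from -3.18 to 4.18 within the dosed groups.

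Cdk1, the kinase that drives entry into mitosis, stood at 7.43, 6.72, 8.14 and 5.73 at 80 mpk, against 13.1, 9.96, 9.21 and 11.1 at 40 mpk, and at 21.1 to 24.8 in vehicle (-0.63 ± 0.11, adjusted p = 0.000207). The groups did not overlap. Ttk, a spindle checkpoint kinase, stood at 0.67, 0.644, 0.841 and 0.559 at 80 mpk, against 1.24, 1.14, 0.95 and 0.979 at 40 mpk (-0.68 ± 0.12, adjusted p = 0.000527). Nuf2, a kinetochore subunit that holds microtubules, stood at 1.4, 1.42, 1.72 and 1.23 at 80 mpk, against 2.83, 2.11, 2.14 and 2.31 at 40 mpk (-0.71 ± 0.13, adjusted p = 0.000527). These genes too were apart in all 8 arrays. Members that did not pass include Birc5 (-0.07), Kif20a (-0.03) and the proliferation marker Mki67 (-0.35, adjusted p = 0.316). By family, 9 of 20 Cenp genes of the centromere were called lower, all 20 with differences below 0 (median -0.43). Of 37 kinesins, many of which carry cargo outside mitosis, 5 were called lower (median -0.01). Over all genes 1.2% were called lower.

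The promoters of Cdk1 and Ttk are printed because they belong to the clearest falls of this list and hold CHR-type letters, searched as TTTGAA and TTCGAA on both strands. Such letters stood in 16 of 20 list members with a promoter entry (80%), against 5854 of 27025 promoters (21.7%). Among the G1/S list they stood in 4 of 21 (19%), and among the called lower genes in 72 of 210 (34.3%). Cdk1 lies at chr10:69352863-69353162 on the minus strand with 2 matches in capitals, and Ttk at chr9:83834439-83834738 on the plus strand with 1 match, which reads on the opposite strand.
Cdk1: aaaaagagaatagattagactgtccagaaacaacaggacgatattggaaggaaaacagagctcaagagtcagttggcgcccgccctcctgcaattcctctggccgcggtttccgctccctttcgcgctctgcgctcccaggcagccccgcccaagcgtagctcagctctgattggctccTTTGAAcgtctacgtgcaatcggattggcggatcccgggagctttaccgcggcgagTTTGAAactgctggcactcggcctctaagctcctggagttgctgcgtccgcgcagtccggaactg
Ttk: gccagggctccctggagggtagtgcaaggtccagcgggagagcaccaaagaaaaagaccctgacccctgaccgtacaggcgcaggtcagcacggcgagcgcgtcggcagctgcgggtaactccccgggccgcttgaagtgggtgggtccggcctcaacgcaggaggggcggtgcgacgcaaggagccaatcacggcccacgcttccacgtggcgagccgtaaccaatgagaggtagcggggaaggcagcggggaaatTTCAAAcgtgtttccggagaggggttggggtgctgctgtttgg
The GLI-type letters GACCACCCA stood in 0 of 11 target promoters and 0 of 210 promoters of called lower genes, against 0.289% of all, which says only that they are not in these windows.

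Several programmes that changed against vehicle did not differ between doses beyond the spread. Of 20 measured sterol synthesis genes 0 were called between doses in limma and 1 had an unadjusted p under 0.05, with differences from -0.20 to 0.32 and a median of -0.01. With array weights 1 was called. Against vehicle 18 of the 20 were called lower at each dose, with medians of -0.88 at 80 mpk and -0.95 at 40 mpk, beside 15.3% and 12.1% of all genes. Idi1, an isomerase early in the pathway, stood at 1.25, 1, 0.965 and 1.26 at 80 mpk, against 1.51, 1.04, 1.15 and 1.46 at 40 mpk, and at 5.53 to 6.98 in vehicle. The doses overlapped and the interval of their difference was -0.54 to 0.14. Hmgcs1, the enzyme before the rate-limiting step, differed by 0.32 (interval 0.07 to 0.57, adjusted p = 0.371). CCAAT stood in 16 of the 16 sterol members with a promoter entry, against 41.1% of all promoters. It also stood in 80% of the G2/M list, 66.7% of the G1/S list and 56.7% of the called lower genes. The SRE-type letters TCACNCCAC stood in 1 of these 16 (6.25%), against 1.44% of all promoters.

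Neuronal differentiation genes gave 0 of 26 called between doses, 1 at an unadjusted p under 0.05, and a median of 0.04. Against vehicle 15 were called higher at 80 mpk (median 0.51, beside 17.6% of all genes) and 14 at 40 mpk (median 0.38, beside 14.5% of all genes). Granule progenitor transcription factors gave 0 of 16 (1 unadjusted, median 0.09), with Atoh1 at 0.09 and Barhl1 at 0.29. Genes of the p53 response gave 0 of 19 (4 unadjusted, median 0.17), where Cdkn1a, a kinase inhibitor, differed by 0.46 (interval -0.04 to 0.96). Only 2 of the 19 differences were below 0. Against vehicle 10 were called higher at 80 mpk (median 0.54) and 7 at 40 mpk (median 0.34). Between doses at 36 h 3 of the 19 were called higher, against 0.283% of all genes. Cholesterol efflux genes of the liver X receptor gave 0 of 9 (0 unadjusted, median 0.22), with Abcg1 at 0.40 (interval -0.18 to 0.98). Against vehicle 7 of the 9 were called higher at 80 mpk (median 1.22) and 6 at 40 mpk (median 0.85). Between doses at 36 h 1 was called higher. The intervals of Cdkn1a and Abcg1 leave room for moderate differences at 24 h.

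Of 19 ribosome biogenesis genes 1 was called. Nop56, a core protein of the nucleolar particles that modify ribosomal RNA, stood at 3.14, 3.54, 3.36 and 3.51 at 80 mpk, against 4.67, 4.49, 4.15 and 4.42 at 40 mpk (-0.39 ± 0.09, adjusted p = 0.00589). Without 40 mpk replicate 1 or 80 mpk replicate 1 its adjusted p was 0.0583 and 0.0544. Over all genes 1.2% were called lower. Of the 19 members, 9 had an unadjusted p under 0.05, 18 had differences below 0 with a median of -0.20, and in 5 the doses did not overlap, against 3.24% of all genes. The mean log2 of the list was 1.07 to 1.27 in the 80 mpk arrays, against 1.33 to 1.46 in the 40 mpk arrays, and each 80 mpk array was below each 40 mpk array. Hk2, a hexokinase, fell by 0.44 (adjusted p = 0.0322) and was the called member among 15 hypoxia and glycolysis genes. Fkbp5, a chaperone induced by glucocorticoids, fell by 0.31 (adjusted p = 0.0332), 1 of 13 in its list. The call for Hk2 was lost without any of 80 mpk replicates 1, 2 and 4 and 40 mpk replicates 1, 2 and 3 (adjusted p of 0.0544 to 0.395). That for Fkbp5 was lost without 80 mpk replicate 1 or 2 or 40 mpk replicate 1 or 3 (0.0695 to 0.335).

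**Figure D3:**
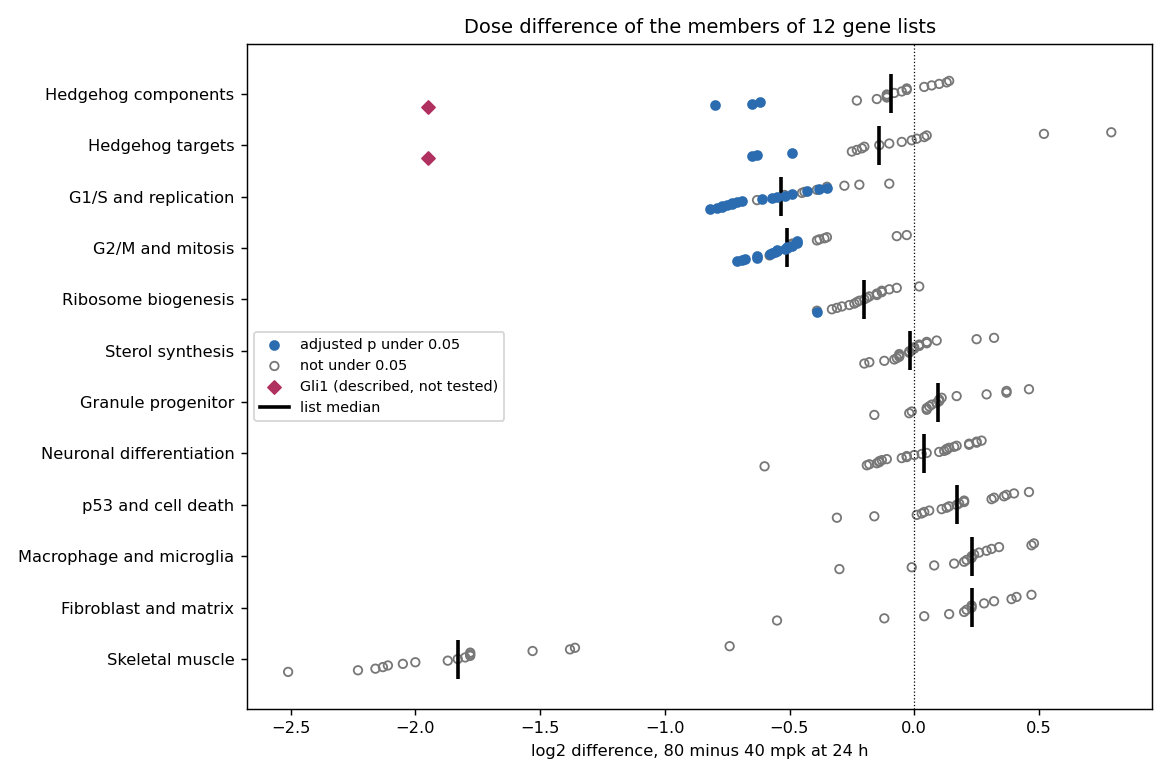
Log2 difference of 80 minus 40 mpk at 24 h for each measured member of 12 gene lists. Filled circles have an adjusted p under 0.05, diamonds are Gli1, and bars are list medians. The G1/S and G2/M medians (-0.54 and -0.51) lie to the left of 0, the sterol and neuronal medians (-0.01 and 0.04) near it, and the muscle genes spread to -2.51 with 0 called.

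Cell type markers other than muscle were called in a single case. Olig1, a transcription factor of oligodendrocyte precursors, stood at 0.357, 0.607, 0.463 and 0.476 at 80 mpk, against 1.09, 0.569, 0.996 and 0.674 at 40 mpk (-0.78 ± 0.20, adjusted p = 0.0337), 1 of 7 in its list. The groups overlapped, and the call was lost without 80 mpk replicate 1, 3 or 4 or 40 mpk replicate 1 or 3 (adjusted p of 0.0589 to 0.335). Over all genes 1.2% were called lower. In vehicle Olig1 stood at 1.25 to 2. The other named members of its list did not move together between doses, with Olig2 at -0.22, Cnp at 0.17 and Mbp at 0.08. Markers of macrophages gave 0 of 15 (median 0.23), of fibroblasts 0 of 13 (0.23), of endothelium 0 of 12 (0.34) and of adipocytes 0 of 9 (0.77), where endothelium had 2 genes at an unadjusted p under 0.05 and the others 0. Slow muscle genes outside the marker list were called lower, of which Myh7 was named by the rule and Myl2 and Myl3 after their values were seen. Myh7 stood at 0.0898, 0.0797, 0.0838 and 0.0869 at 80 mpk, against 0.348, 0.102, 0.786 and 0.093 at 40 mpk (-1.41 ± 0.28). In all of these 3 genes the high values were those of 40 mpk replicates 1 and 3, which also had the highest muscle list means of their group. Without 40 mpk replicate 3 the differences were -0.81 for Myh7 (adjusted p = 0.0706), -1.28 for Myl2 (0.604) and -0.67 for Myl3 (0.533). The 2 genes called higher, named after their values were seen, were dim. Cldn8, a tight junction protein, stood at 0.0565, 0.0365, 0.0382 and 0.0333 at 80 mpk, against 0.0256, 0.0365, 0.0268 and 0.0344 at 40 mpk (adjusted p = 0.0473). Itih2, a plasma protein that binds hyaluronan, stood at 0.203 in 80 mpk replicate 1, beside 0.0581 to 0.0749 in the other 80 mpk arrays and 0.0434 to 0.0711 at 40 mpk (adjusted p = 0.0427). Without 80 mpk replicate 1 the adjusted p was 0.603 for Cldn8 and 0.785 for Itih2.

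The dose difference was followed over the 5 times in separate arrays, 5 against 4 at 1 h, 3 against 5 at 6 h, 4 against 3 at 12 h and 4 against 3 at 36 h (80 against 40 mpk). At 36 h limma called 178 genes (0.826%), 61 higher (0.283%) and 117 lower (0.543%) at 80 mpk. The 178 calls became 10 without 40 mpk replicate 1, 25 without 80 mpk replicate 1, 52 without 80 mpk replicate 4, 84 without 80 mpk replicate 3, 115 without 40 mpk replicate 3 and 456 without 80 mpk replicate 2 of that time. They became 0 without muscle-rich arrays and 0 with only the groups compared. At 12 h limma called 13 (0.0603%) and at 6 and 1 h 0. Genes with an unadjusted p under 0.05 numbered 2535 at 36 h, 2355 at 12 h, 785 at 6 h and 739 at 1 h. At 36 and 12 h that is more than the 1607 at 24 h, and chance would give 1078. Of the 258 genes lower at 24 h, 255 had a difference below 0 at 36 h (98.8%, against 52.8% of all genes), with a median of -0.31. Of these 25 were called lower at 36 h, which is 9.69% of the 258 and 21.4% of the 117. At 12 h 184 of the 258 were below 0 (71.3%, against 54.2% of all genes) with a median of -0.08, and 0 were called. At 6 h 197 were below 0 (76.4%, against 41.1%) with a median of -0.05. At 1 h 52 were below 0 (20.2%, against 54.9%) with a median of 0.06, so most were above 0 there. The 258 were chosen by their values at 24 h, so smaller medians at other times follow in part from that choice.

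Gene by gene, Gli1 differed between doses by -0.78 at 6 h, -0.91 at 12 h, -1.95 at 24 h and -0.33 at 36 h. Pdgfa differed by -0.38 at 12 h, -0.90 at 24 h and -0.55 at 36 h (adjusted p at 36 h = 0.0487). Wif1 differed by 0.18 at 12 h, -1.39 at 24 h and -0.89 at 36 h (adjusted p at 36 h = 0.0601). The G1/S list median was -0.09 at 12 h, -0.54 at 24 h and -0.23 at 36 h, where 0 of 26 were called. The G2/M median was -0.03, -0.51 and -0.43 at these times, with 2 of 25 called at 36 h. The sterol median was 0.02, -0.01 and -0.31, with 2 of 20 called lower at 36 h, and Idi1 fell by 0.70 there (adjusted p = 0.0486).

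**Figure D4:**
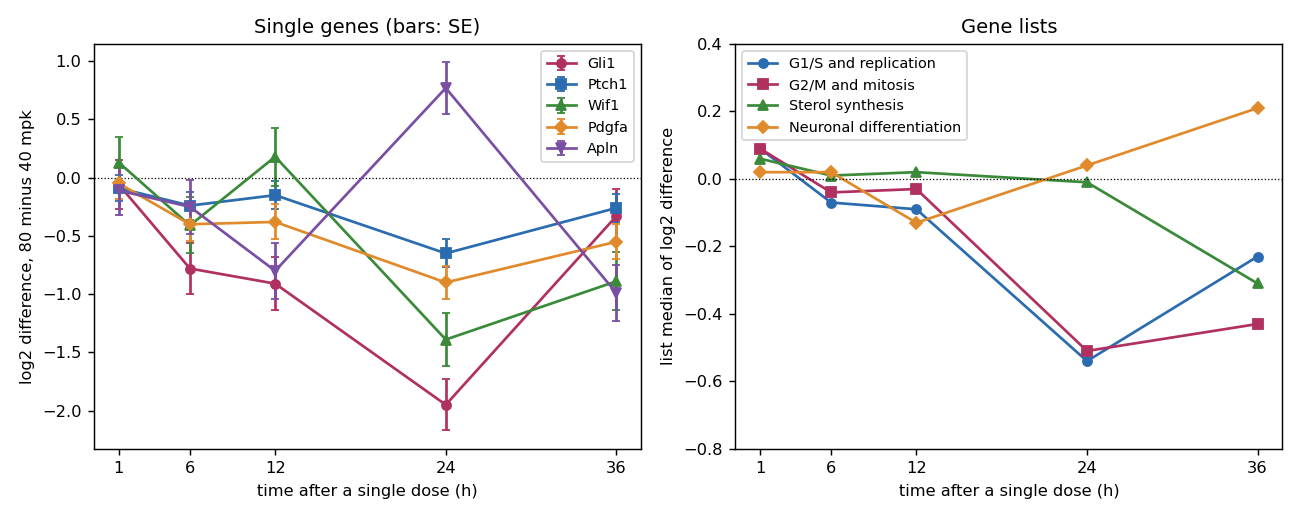
Log2 difference of 80 minus 40 mpk by time after a single dose, for 5 genes (left, bars are SE) and as medians of 4 gene lists (right). Gli1 is at -1.95 at 24 h, the time picked because this difference is largest there, so its low point is fixed by that choice. At 36 h Gli1 is at -0.33 and the G2/M median at -0.43.

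A test of the dose difference at 24 h minus that at 36 h called 3 genes (0.0139%). Of these Gli1 is the gene for which 24 h was picked, so its call is no test, and the others are Apln and A330008L17Rik, the second named after its values were seen. Apln, a peptide hormone of blood vessels, differed by 0.77 at 24 h and by -0.99 at 36 h. The unnamed transcript A330008L17Rik differed by -0.36 at 24 h and by 0.87 at 36 h. For the replication and mitosis genes the smaller differences at 36 h did not pass this test. The same test against 12 h called 26 genes (0.121%), 20 of them with a more negative difference at 24 h (0.0928%), among them Wif1, Gins1 and the centromere gene Cenpp.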

How the data were processed

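One-colour arrays of biotin-labelled cRNA were used. The deposited values are intensities per probe set, for which the submitters' processing notes name RMA and no settings. Values ran from 0.0166 to 99.9 with a mean of 1 per array, so log2 was taken without a pseudocount. Array medians were 0.109 to 0.131. The genome build is not given in the sources used here. Of 43681 probe sets 30342 had 1 gene symbol, 13339 had none and were left out, and 0 had several. Symbols were updated with the RefSeq gene table (15255 probe sets through an accession, 15034 through a symbol or synonym, 53 unmatched). The probe set with the highest mean over all arrays stood for each of 21552 genes, 6060 of which had several.

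All 75 arrays in 19 groups entered a limma fit (version 3.58.1, R 4.3.3) with a mean for each group (56 residual and 3.37 prior degrees of freedom). P-values were adjusted over all genes with a threshold of 0.05, and intervals are at 95%. On simulated data with 24 h arrays, log2 changes of 0.5, 1 and 2 were recovered in 54.5%, 91% and 95.5% of genes. There were 7 false calls among 21552 genes. These rates describe the simulated data only, and whether they hold for the real arrays was not tested. In the real arrays the 260 calls between doses at 24 h became 0 with only the groups compared.

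Named genes were a fixed pathway list, the 15 largest falls and rises without overlap of the doses (placeholder names left out), up to 4 members of each gene list by adjusted p, 5 genes per test between times, and 2 markers per cell type. The members, gene lists and tests were chosen with earlier results of these data known. Alternatives were the mean of all probe sets, a filter on dim genes (14368 left), quantile normalization, a trend and robust variance prior, array weights, a replicate block, only the groups compared, muscle and fibroblast list means as covariates, leaving out 21 muscle-rich arrays (54 left) and leaving out each array. Tables and figures were made in Python 3.11.15 with pandas 2.3.3, numpy 2.4.6, matplotlib 3.10.9 and scipy 1.17.1.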

Additional observations from a re-analysis of the deposited data

Results flagged for a closer look

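In 114 groups of 4 or 5 arrays at 24 h examined for a single array far from the others, 4 stood out, and chance gives about 1 in 20. Mycn was 6.56 in 80 mpk replicate 1, beside 8.03 to 8.17 in the other 80 mpk arrays. Ccnd1 was 10.3 in 40 mpk replicate 4, beside 14.2 to 14.5 in the other 40 mpk arrays. Aunip was 0.54 in 40 mpk replicate 1, beside 0.348 to 0.375 in the others. Pdgfa was 1.05 in 80 mpk replicate 3, beside 0.882 to 0.893 in the others.

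For some genes the dose difference itself differed between times. Between 24 and 36 h the difference of the dose differences was -1.62 ± 0.32 for Gli1, given without a test because 24 h was picked for this gene, and 1.76 ± 0.33 for Apln (adjusted p = 0.0305 in limma). Between 24 and 12 h it was -1.57 ± 0.34 for Wif1 (adjusted p = 0.0265), -0.95 ± 0.19 for Gins1 (0.016) and 1.57 ± 0.33 for Apln (0.0215). For the centromere genes it was -1.15 for Cenpp and -1.20 for Cenpk, and for the ubiquitin ligase gene Siah1b -0.59 (adjusted p = 0.0108 each). It was -0.44 for Pdcd5 (0.0108), a gene tied to cell death, and 0.63 for Actn1 (0.0151), an actin crosslinker.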

How the results depend on the processing

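The 260 calls between doses at 24 h became 534 with array weights (58 higher, 476 lower), 26 without muscle-rich arrays and 79 with only the muscle-rich 24 h arrays, a setting chosen after seeing the data. They became 0 with only the groups compared, with or without the replicate block. Leaving out each array gave 99 to 334 calls, the fewest without 40 mpk replicate 1 (99), 80 mpk replicate 1 (139) and 80 mpk replicate 4 (150). No named gene that was called changed sign in any setting, and of 37 such genes other than Gli1 the mean of probe sets lost 5, array weights 1, the muscle covariate, quantile normalization, the other variance prior and the replicate block 0, both covariates together 2, the muscle-rich settings 34 and 16, and the 2-group fits 37. Leaving out each array lost 1 to 14, with 14 without 40 mpk replicate 1 and 14 without 80 mpk replicate 1.

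Same-numbered arrays did not pair at 24 h, with correlations of their deviations of 0.0558, -0.352, 0.418 and -0.229. The replicate block gave 260 calls at 24 h, with 248 of the 258 among them, 63 at 36 h, 175 at 12 h and 43 for 24 against 12 h.

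The 178 calls at 36 h became 297 with the filter on dim genes, 544 with muscle and fibroblast covariates, 0 without muscle-rich arrays and 0 with only the groups compared, and 10 to 456 when an array was left out. The 13 calls at 12 h became 7 with the mean of probe sets, 1616 with array weights, 59 with both covariates, 1 without muscle-rich arrays and 0 with only the groups compared, and 0 to 200 when an array was left out. At 6 h array weights, the muscle covariate and both covariates gave 1 call each. At 6 and 1 h leaving out arrays gave 0 and 0. The 3 calls for 24 against 36 h became 5 with array weights and 5 with both covariates, and 0 to 4 when an array was left out. The 26 calls for 24 against 12 h became 846 with array weights, 55 with the muscle covariate, 134 with both covariates, 0 without muscle-rich arrays and 0 with only the groups compared, and 0 to 47 when an array was left out. Against vehicle leaving out arrays gave 6273 to 6930 calls at 80 mpk and 4508 to 5917 at 40 mpk, the second being 1703 without muscle-rich arrays. The cause of these changes was not tested.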

Other observations

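Further gene lists were measured between 80 and 40 mpk at 24 h, and limma called 0 genes in each of them. Notch pathway genes had a median of 0.20 (2 of 15 at an unadjusted p under 0.05), and genes of the interferon response and antigen presentation a median of 0.25 (0 of 13). Immediate early genes had a median of -0.26 (3 of 15). BMP ligands and Id genes ran from -0.78 to 0.59 with a median of 0.01 (3 of 13). Fatty acid synthesis genes had a median of 0.08 (1 of 12), in which Scd1, a desaturase that is also abundant in fat, differed by 0.97 with an interval of -0.96 to 2.89. Cyclin-dependent kinase inhibitors had a median of -0.06 (1 of 8), and Cdkn3, a phosphatase of the cell cycle, differed by -0.25 at 24 h and by -0.77 at 36 h (adjusted p = 0.00452 in limma at 36 h). The circadian clock genes had a median of -0.02 (1 of 15), the insulin-like growth factor axis 0.03 (1 of 14), the integrated stress response -0.03 (2 of 13) and xenobiotic and oxidative response genes 0.06 (0 of 12). Markers of neutrophils had a median of 0.28 (1 of 11), of lymphocytes 0.29 (2 of 8), of keratinocytes 0.22 (0 of 8), of pericytes and smooth muscle 0.03 (0 of 8), of astrocytes 0.12 (1 of 6) and of erythroid cells -0.02 (0 of 4).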
